A study of Mus musculus with 18 samples.

Results

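Hemoglobin carries oxygen in red blood cells, and its messenger RNA persists in young red cells that have just left the bone marrow. The genes described here are the 4 adult globin genes of the mouse, Hbb-bs and Hbb-bt (beta chains) and Hba-a1 and Hba-a2 (alpha chains), together with Alas2, the red cell form of the enzyme that starts heme synthesis. They were chosen by gene symbol, as 5 of the 22063 genes in the table, and each of the 5 symbols matched 1 Ensembl identifier. The rule uses names alone, but the members were chosen with earlier results of these data known. All 5 genes passed the filter on low counts.

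RNA was sequenced from 18 mouse hippocampus samples, those of the rotated groups taken right after multi-axis rotation. The Control group (n = 3) is a blank control. S-V mice (n = 5 samples) were turned in 1 direction without sight. D+V mice (n = 5 samples) were turned in both directions and could see. D-V mice (n = 5 samples) had the same turning in both directions but no sight, the condition named Coriolis illusion in the labels. No group combined rotation in 1 direction with free vision. The labels state neither strain, sex and age nor whether blood was cleared from the vessels or each library came from its own animal. The p-values therefore reflect library-to-library spread, which may be technical. Libraries held between 15031084 and 25313119 estimated counts, and genes used to mark hippocampal neurons summed to between 2406 and 3118 CPM (counts per 1000000 counts of the library) in every library.

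Hemoglobin is built from a pair of alpha chains and a pair of beta chains, each holding a heme group, and red cell precursors make both chains in near balance while Alas2 sets the supply of heme. Blood vessels run through the hippocampus, so a piece of this tissue holds red cells unless the vessels are flushed. In bulk tissue, fewer cells of a type and less RNA per cell cannot be told apart.

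The promoters of the genes are shown as a description of their sequences, and a relation to the levels in these libraries was not tested. Each sequence runs from 250 bases before to 50 bases after the start of transcription in RefSeq (build GRCm38.p6), while the labels name no build for the deposited counts. Capitals mark 4 motifs searched on both strands: the GATA motif (written AGATAA or else AGATAG, and likewise TGATAA or else TGATAG), the CACCC motif that erythroid Kruppel-like factors bind, the CCAAT motif, and a TATA box written ATATAA. Overlapping matches were each counted.

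Hbb-bs, chr7:103827879-103828178, minus strand: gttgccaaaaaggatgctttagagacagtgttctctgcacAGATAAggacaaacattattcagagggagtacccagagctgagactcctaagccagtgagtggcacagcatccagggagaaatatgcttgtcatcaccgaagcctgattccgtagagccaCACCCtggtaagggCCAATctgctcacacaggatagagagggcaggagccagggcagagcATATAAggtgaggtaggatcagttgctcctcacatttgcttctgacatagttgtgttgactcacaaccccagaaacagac
Hbb-bt, chr7:103813874-103814173, minus strand: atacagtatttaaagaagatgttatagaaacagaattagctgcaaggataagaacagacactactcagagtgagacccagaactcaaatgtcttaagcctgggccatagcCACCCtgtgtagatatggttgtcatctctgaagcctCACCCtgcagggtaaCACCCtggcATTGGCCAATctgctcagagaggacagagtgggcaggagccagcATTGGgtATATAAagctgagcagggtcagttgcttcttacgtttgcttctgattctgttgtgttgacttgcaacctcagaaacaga
Hba-a1, chr11:32283422-32283721, plus strand: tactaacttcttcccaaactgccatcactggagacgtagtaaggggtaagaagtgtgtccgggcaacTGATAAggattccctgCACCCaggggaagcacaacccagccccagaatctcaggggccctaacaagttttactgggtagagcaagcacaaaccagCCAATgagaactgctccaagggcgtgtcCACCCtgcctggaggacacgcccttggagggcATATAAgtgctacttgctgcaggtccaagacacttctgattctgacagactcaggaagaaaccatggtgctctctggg
Alas2, chrX:150547167-150547466, plus strand: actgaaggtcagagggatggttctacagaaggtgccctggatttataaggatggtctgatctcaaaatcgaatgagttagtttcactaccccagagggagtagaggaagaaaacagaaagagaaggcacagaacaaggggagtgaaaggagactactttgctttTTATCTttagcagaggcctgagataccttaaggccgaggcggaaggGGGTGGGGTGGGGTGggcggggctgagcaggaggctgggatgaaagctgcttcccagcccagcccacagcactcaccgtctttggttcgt

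The Hba-a2 promoter (chr11:32296242-32296541, plus strand) was identical to that of Hba-a1 over the 297 bases they share, with a shift of 3 bases, and is not repeated. Hbb-bs, Hba-a1 and Hba-a2 held all 4 motifs, as did 0.773% of 32851 RefSeq promoters of the same length. Hbb-bt held 3 CACCC and 3 CCAAT matches and an ATATAA, with no GATA match in this window. Alas2 held 1 GATA match and 3 CACCC matches, all on the opposite strand, with neither CCAAT nor ATATAA. Taken singly, the GATA letters occurred in 29.8% of promoters, CACCC in 57.5%, CCAAT in 37.4% and ATATAA in 9.82%. A match is a description of the letters and not a measured binding site.

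The transcripts of the alpha pair are nearly the same sequence, with 537 of 538 aligned bases identical and a shared run of 415 bases between Hba-a1 and Hba-a2. Hbb-bs and Hbb-bt shared 580 of 626 aligned bases (92.7%), with a run of 430. Reads within such runs fit both copies, so the division of counts within each pair is uncertain, whereas Hba-a1 and Hbb-bs were 59.1% identical with a longest run of 14 bases.

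The adult globins made up a small part of each library, and the part was larger in most rotated samples. The 4 globins summed to 531 ± 88.5 CPM (SD, n = 3) in Control, 772 ± 158 (n = 5) in S-V, 1448 ± 1021 (n = 5) in D+V and 1187 ± 317 (n = 5) in D-V. D+V replicate 2 held the highest sum of all 18 libraries at 3134 CPM and D+V replicate 4 the lowest at 380 CPM, so both extremes were in 1 group.

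Hbb-bs, the more abundant beta globin, was at 211, 262 and 204 CPM in the 3 Control libraries. It was at 291, 372, 258, 344 and 444 CPM in S-V replicates 1 to 5, and at 520, 1360, 635, 170 and 469 CPM in those of D+V. In D-V it was at 516, 481, 723, 386 and 442 CPM. Every D-V library stood above every Control library, as did 4 of 5 D+V and 4 of 5 S-V libraries, and D+V replicate 4 stood below them all. Of all genes that passed the filter, 1.98% had every D-V library above every Control library. The fold change was 1.53 (95% confidence interval 0.863 to 2.70) in S-V, 2.86 (1.58 to 5.16) in D+V and 2.29 (1.28 to 4.10) in D-V against Control, without adjustment of the intervals.

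Hbb-bt, the minor adult beta globin, was at 40.5, 43.3 and 36.1 CPM in Control. It was at 53.7, 72.4, 42.4, 63.6 and 69.7 CPM in S-V and at 97.6, 251, 114, 28.1 and 80.9 CPM in D+V. In D-V it was at 90.1, 82.8, 137, 66.0 and 75.8 CPM. The pattern was that of Hbb-bs: D-V did not overlap Control, and D+V held both the highest and the lowest library.

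Hba-a1, an alpha globin, was at 114, 160 and 105 CPM in Control. It was at 135, 189, 139, 179 and 227 CPM in S-V and at 314, 700, 302, 86.0 and 234 CPM in D+V. In D-V it was at 277, 267, 407, 213 and 245 CPM. Here S-V overlapped Control more, with 3 of 5 libraries above the highest Control library, while all 5 D-V libraries were above it.

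Hba-a2, the other alpha globin, was at 120, 167 and 130 CPM in Control. It was at 165, 231, 156, 186 and 243 CPM in S-V and at 343, 822, 345, 95.1 and 271 CPM in D+V. In D-V it was at 286, 272, 459, 239 and 268 CPM. D-V and Control again did not overlap, and 3 of 5 S-V libraries exceeded every Control library.

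Alas2, needed for heme supply in red cell precursors, was far lower, at 7.44, 8.98 and 7.78 CPM in Control. It was at 8.07, 15.2, 7.27, 9.51 and 12.3 CPM in S-V and at 17.4, 55.0, 22.1, 6.76 and 15.7 CPM in D+V. In D-V it was at 19.2, 17.4, 24.8, 13.2 and 14.9 CPM. All D-V libraries lay above all Control libraries, and S-V replicate 3 and D+V replicate 4 lay below them.

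**Figure D1:**
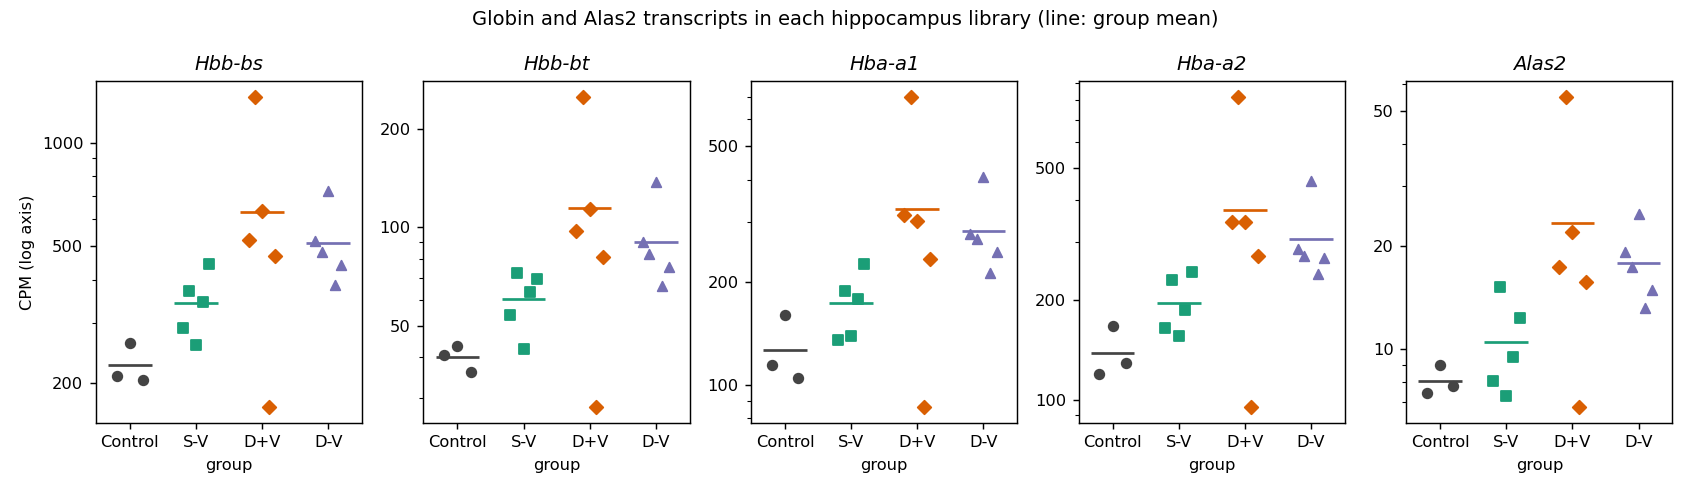
CPM of each gene (log axis) in every library by group, with 1 point a library and a line at the group mean. The D-V points lie above all Control points in each panel, as for 1.98% of all tested genes, and the D+V points hold both the highest and the lowest library.

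None of the 5 genes was called in any of 7 comparisons by edgeR's quasi-likelihood test at a Benjamini-Hochberg adjusted p under 0.05 over 14763 genes. In D+V against Control the test called 134 genes, 0.908% of those tested, and in the other 6 comparisons it called 0.0% of them. With the replicate number as a block the count in D+V against Control was 5, and none of the 5 red cell genes was among the calls.

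Against Control, D+V gave the largest log2 fold changes and the adjusted p nearest the threshold. They were 1.51 (SE 0.41, edgeR adjusted p = 0.0696) for Hbb-bs, 1.55 (SE 0.43, adjusted p = 0.0776) for Hbb-bt and 1.40 (SE 0.41, adjusted p = 0.0899) for Hba-a1. Hba-a2 was at 1.46 (SE 0.42, adjusted p = 0.0828) and Alas2 at 1.57 (SE 0.45, adjusted p = 0.0823). All 5 had an unadjusted p under 0.05, as did 10.9% of tested genes in the higher direction, and all 5 had a log2 fold change of at least 1, against 1.1% of genes. For 0 of 5 genes were all D+V libraries above all Control libraries, against 2.82% of genes. Each gene was higher than all Control libraries in 4 of 5 D+V libraries, and the exact two-sided permutation p on mean log2 CPM was 0.143 for each.

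The size of these values, and whether the genes were called, depended on single libraries and on the test. D+V replicate 2 held between 42.8% and 47.0% of the D+V total of each gene, and without it the log2 fold changes fell to between 0.92 for Hba-a1 and 1.03 for Hbb-bt, below those of D-V. DESeq2 called all 5 genes (adjusted p from 0.0156 to 0.0294) along with 7.25% of the genes it tested. The edgeR test also called all 5 without D+V replicate 1 (adjusted p from 0.0299 to 0.0497), where it called 8.78% of genes, and without D+V replicate 4 (0.0263 to 0.0428), where it called 0.3%.

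D-V against Control differed less in size but did not overlap. The log2 fold changes ran from 1.15 for Hba-a2 to 1.19 for Hbb-bs and Hbb-bt, with edgeR adjusted p from 0.673 to 0.708. All 5 genes had an unadjusted p under 0.05 (0.00789 for Hbb-bs to 0.0164 for Alas2), where 3.5% of genes did so in the higher direction, and a log2 fold change of at least 1, where 1.05% did. Every D-V library exceeded every Control library for 5 of 5 genes, as for 1.98% of all genes tested. The exact two-sided permutation p was 0.0357 for each gene, the smallest that 3 against 5 libraries can give. In all, 30 such permutation tests were run, and the p-values are not adjusted.

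S-V against Control showed the smallest differences, with log2 fold changes from 0.39 for Alas2 to 0.61 for Hbb-bs and edgeR adjusted p from 0.514 to 0.742. None of the 5 had an unadjusted p under 0.05, against 7.54% of genes in the higher direction, and for 0 of 5 were all S-V libraries above all Control libraries, against 6.14% of genes. The exact permutation p ran from 0.0714 for Hbb-bs and Hbb-bt to 0.286 for Alas2. These 3 comparisons share the 3 Control libraries, so they are not independent of one another.

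With all 15 rotated libraries against Control, the log2 fold changes lay between 1.02 for Hba-a1 and 1.12 for Hbb-bt (edgeR adjusted p from 0.210 to 0.269). All 5 genes had an unadjusted p under 0.05, against 7.51% of genes in the higher direction, and a log2 fold change of at least 1, against 0.867%. Between 12 and 13 of the 15 rotated libraries exceeded every Control library, and 1 lay below all of them for each globin and 2 for Alas2. All 5 genes together exceeded Control in 3 of 5 S-V, 4 of 5 D+V and 5 of 5 D-V libraries. The 5 genes varied together, so they do not count as 5 separate observations. How many of all tested genes reach such partial counts, here and by group above, was not computed. No conclusion is drawn from them.

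Among the rotated groups, the genes had higher mean levels in both groups turned in both directions than in S-V, and none passed the adjusted test. In D-V against S-V, which differ in direction of rotation with vision blocked in both, log2 fold changes ran from 0.58 for Hbb-bs to 0.78 for Alas2 (edgeR adjusted p from 0.767 to 0.796). Alas2 alone had an unadjusted p under 0.05 (0.0483), against 3.42% of genes in the higher direction, and the exact permutation p ran from 0.0159 for Hba-a1 and Hba-a2 to 0.0317 for Hbb-bt. The share of all genes with such a permutation p was not computed, and the 5 genes varied together. In D+V against S-V, log2 fold changes ran from 0.90 for Hbb-bs to 1.18 for Alas2 (edgeR adjusted p from 0.234 to 0.291, exact permutation p from 0.127 to 0.286). Unadjusted p was under 0.05 for 5 of 5 genes, against 8.2% of genes, and without D+V replicate 2 the log2 fold changes were between 0.42 and 0.58. None of the 5 had all D-V libraries above all S-V libraries (0.969% of tested genes did) or all D+V libraries above all S-V libraries (0.515%).

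D-V against D+V, which differ in vision alone, gave log2 fold changes from -0.40 for Alas2 to -0.23 for Hba-a1 (edgeR adjusted p from 0.682 to 0.829). None of the 5 had an unadjusted p under 0.05, against 8.6% of genes in the lower direction. The 95% interval of the log2 fold change ran from -1.02 to 0.38 for Hbb-bs and from -1.15 to 0.36 for Alas2. The sign turned for all 5 genes when D+V replicate 2 was left out, to between 0.16 and 0.25. No direction can be drawn for this comparison.

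**Figure D2:**
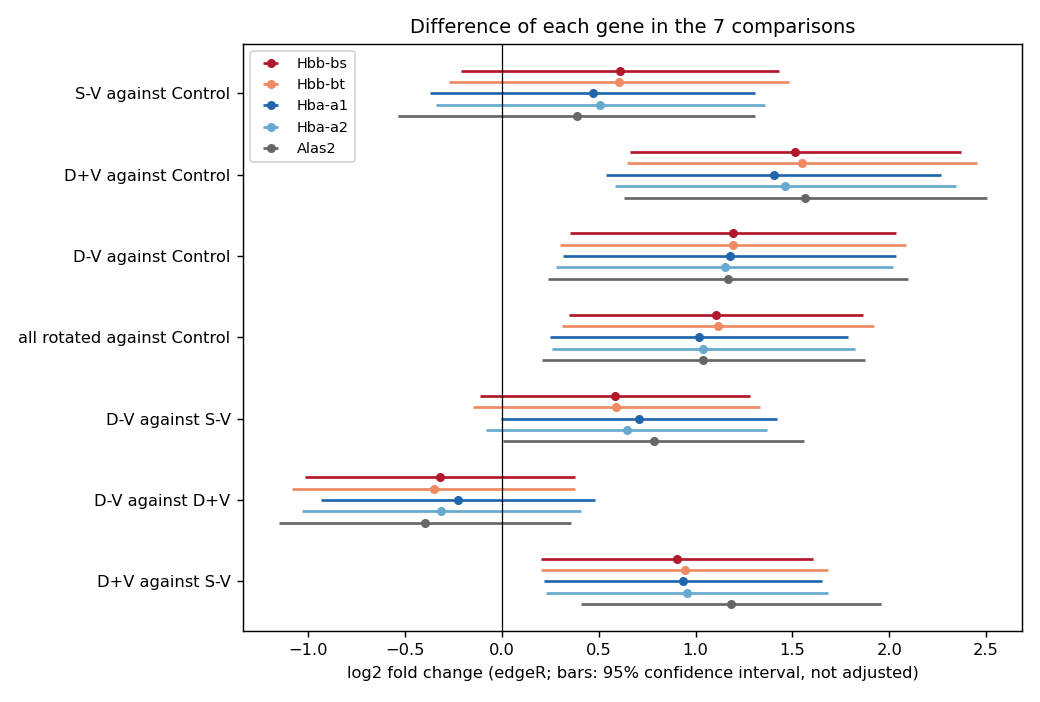
Log2 fold change of each gene by edgeR in the 7 comparisons, with bars for the unadjusted 95% confidence interval. Intervals lie above 0 for all 5 genes in D+V, D-V and all rotated against Control and in D+V against S-V, and cross 0 for all 5 in S-V against Control and D-V against D+V.

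The scatter between libraries was wide for these genes. Their biological coefficient of variation was between 36.1% for Hbb-bs and 39.2% for Alas2, against 15.4% for the common value, which placed them between percentiles 92.1 and 93.5 of tested genes. The highest library exceeded the lowest between 7.98-fold for Hbb-bs and 8.93-fold for Hbb-bt over all 18 libraries. Within Control the same ratio was between 1.20 and 1.53.

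The 5 genes moved together across libraries while their proportions stayed within narrow bounds. Over the 18 libraries, pairs of genes had a Pearson r between 0.966 and 0.994 and a Spearman rho between 0.961 and 0.994 on log2 CPM, and the lowest r was 0.9496 without D+V replicates 2 and 4. These are descriptions over libraries that share a total, and near-identical copies also share reads. The alpha to beta ratio of counts was 0.954 ± 0.058 (SD, n = 18), from 0.863 to 1.07, while the globin sum ranged 8.25-fold. Hba-a2 made up 52.7 ± 1.51% of alpha counts and Hbb-bt 15.04 ± 0.781% of beta counts (n = 18 each).

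Alas2 was at 14.9 ± 1.83 counts per 1000 globin counts (n = 18). It was between 14.2 and 16.4 in Control, and between 12.2 and 12.5 in 4 S-V libraries, with the remaining S-V library, replicate 2, at 17.6. D+V spanned 13.7 to 17.8 and D-V 14.4 to 16.4, so each overlapped Control. D+V replicate 4, the lowest library for globins, had the highest such proportion of all 18.

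**Figure D3:**
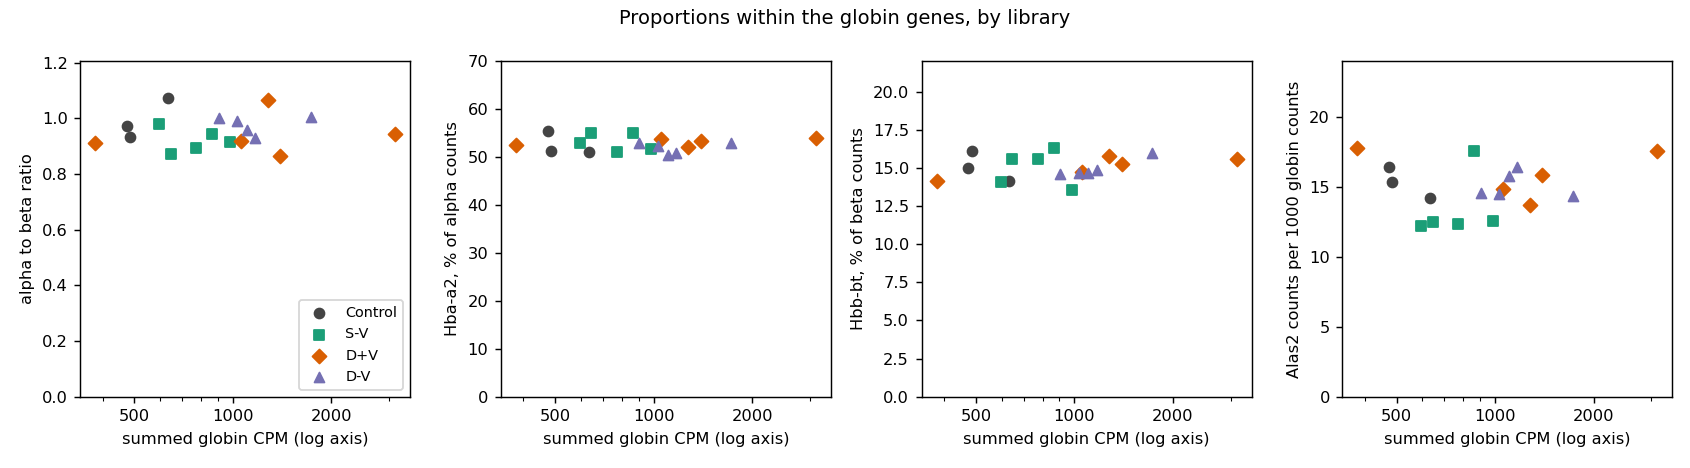
The alpha to beta ratio, the Hba-a2 and Hbb-bt shares and Alas2 per 1000 globin counts (linear axes from 0) against the summed globin CPM (log axis), 1 point a library by group. The proportions vary little while the sum spans 380 to 3134 CPM, and 4 S-V libraries sit lowest for Alas2.

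Per kilobase of transcript, the order of the levels was the same in all 18 libraries: Hbb-bs, Hba-a2, Hba-a1, Hbb-bt, Alas2. In Control the levels were 359 ± 50.6 CPM per kilobase for Hbb-bs, 251 ± 45.4 for Hba-a2, 181 ± 42.4 for Hba-a1, 56.9 ± 5.14 for Hbb-bt and 3.96 ± 0.396 for Alas2 (SD, n = 3). Hbb-bs exceeded Hba-a2 by 1.34 to 1.63 times within a library. Lengths came from the first GENCODE M21 transcript of each gene (699 bases for Hba-a1 and 554 for Hba-a2), and the position of the alpha copies relative to each other depends on those lengths and on how shared reads were divided.

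Other genes tied to red cells were taken from 6 lists: other globins, heme synthesis, membrane and skeleton, erythroid transcription factors, cytosol, and heme breakdown with hemoglobin clearance. The table held 81 such genes, of which 62 were tested, and edgeR called 0 of the 62 in each of the 7 comparisons. The 19 genes too low to test include embryonic globin genes and regulators of red cell formation. A count of 0 allows up to 3 counts, or 0.1996 CPM in the shallowest library, which covers counting error only.

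Among other globins, embryonic Hba-x and Hbb-bh1 had no counts in any library, nor had Hbb-bh2 of the beta globin locus, and embryonic Hbb-y had 8 counts in all, each in D+V. Cygb, a globin of fibroblasts and pericytes, was at 71.2 ± 6.04 CPM in Control (n = 3) against 57.2 ± 6.71 in D+V (n = 5), a log2 fold change of -0.28 (edgeR adjusted p = 0.107). Ngb, the neuronal globin, was at 7.18 ± 7.31 CPM in Control against 4.09 ± 1.76 in D+V. Mb, the muscle globin, was scarce at 0.442 ± 0.223 CPM in Control, 0.329 ± 0.213 in D+V, 0.339 ± 0.125 in D-V and 1.24 ± 2.02 in S-V. The 3 tested genes of this list had a median log2 fold change against Control of -0.46 in D+V and -0.38 in D-V, both the values of Mb (SE 0.92 each), and of -0.16 for S-V. The median of all tested genes was -0.0023, 0.0050 and 0.0023 in that order. Of the 3, 1 had a positive value in S-V (Mb) and 0 in D+V and D-V.

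All 12 heme synthesis genes were tested, with a median log2 fold change of -0.08 in D+V and -0.02 in D-V against Control. Alas1, the housekeeping counterpart of Alas2, was at 63.7 ± 0.692 CPM in Control, 56.5 ± 4.21 in D+V and 61.2 ± 4.33 in D-V, with a log2 fold change of -0.14 in D+V (edgeR adjusted p = 0.272). Fech, which inserts iron into protoporphyrin to form heme, was at 74.5 ± 1.67 CPM in Control against 76.6 ± 6.68 in D+V. Slc25a39, a mitochondrial carrier, was at 62.2 ± 4.30 CPM in Control against 58.7 ± 9.28 in D+V.

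Of the membrane and skeleton list 12 of 17 genes were tested, with a median log2 fold change of 0.07 in D+V and -0.02 in D-V. In D+V 8 of the 12 had a positive value. Slc4a1, named below for its likeness to the globins and so chosen from these values, was at 0.631 ± 0.449 CPM in Control. It was at 1.77 ± 1.70 CPM in D+V (log2 fold change 1.51, SE 0.72, edgeR adjusted p = 0.278), with 1 library at 4.62 CPM. In D-V it was at 1.16 ± 0.731 CPM (log2 fold change 0.89, SE 0.72, edgeR adjusted p = 0.868). The most abundant were Add2, Dmtn and Sptb, which neurons also express. Add2 was at 402 ± 65.3 CPM in Control against 420 ± 69.5 in D+V, a log2 fold change of 0.10 (edgeR adjusted p = 0.765). Sptb was at 308 ± 45.6 CPM against 305 ± 42.4, a log2 fold change of 0.02 (adjusted p = 0.956). Dmtn was at 346 ± 16.0 CPM in Control against 283 ± 26.5 in D+V, with a log2 fold change of -0.26 (edgeR adjusted p = 0.0779). Rhag, a red cell membrane protein of the Rh complex, had no counts. Of erythroid transcription factors, Gata1 had 1 count and Gfi1b none in all 18 libraries, Klf1 had 60, and the 7 tested members had a median log2 fold change of -0.20 in D+V, -0.02 in D-V and -0.04 in S-V. Ldb1 was at 112 ± 6.01 CPM in Control against 95.7 ± 10.5 in D+V (edgeR adjusted p = 0.171), and Zbtb7a was at 75.8 ± 5.06 CPM in Control and 81.6 ± 10.8 CPM in D+V (adjusted p = 0.521).

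The cytosol list had 18 tested genes with a median log2 fold change of 0.05 in D+V and 0.09 in D-V. Car2 and Prdx2, among its most abundant genes, are also expressed in brain cells, and Car2 was at 203 ± 31.6 CPM in Control, 244 ± 20.4 in S-V and 213 ± 32.1 in D+V. The 12 genes of heme breakdown and hemoglobin clearance had a median of -0.02 in D+V and -0.06 in D-V, and ferritin heavy chain Fth1 was at 2726 ± 142 CPM in Control against 2670 ± 364 in D+V.

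The genes most like the globins across libraries were found by the Pearson correlation of log2 CPM with the log2 of the globin sum over 18 libraries, among 14758 other tested genes. Among the 10 highest were Ube2l6 (r = 0.897), Slc4a1 (0.826), Isg20 (0.778) and Tent5c (0.743), which belong to the red cell lists. The lists were chosen with earlier results of these data known, so the place of list genes in this ranking is a description only. Slc4a1 is the band 3 anion exchanger of the red cell membrane. Of the 51 red cell list genes ranked, 27 had a positive and 24 a negative r, with a median of 0.021 against -0.022 for all ranked genes. Epb41, of the membrane skeleton, ranked 59 (r = 0.621), whereas Dmtn (-0.532), Bcl11a (-0.586) and Cygb (-0.677, rank 14705) ran the other way. Epb41 and these 3 were chosen after their values were seen. Also among the 10 highest were Zmynd12, Ect2, Yes1, Cldn14 and Zfp36l1 (r from 0.741 to 0.714), none of them in the lists.

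Ube2l6 ran from 6.26 to 23.2 CPM with a median of 9.08, and Slc4a1 from 0.271 to 4.62 CPM with a median of 0.807. D+V replicate 2 was the highest library for Ube2l6, Slc4a1, Isg20 and Tent5c. Tent5c had a higher r with the choroid plexus sum (0.822) than with the globin sum, and its Spearman rho with the globin sum was 0.556. Without D+V replicates 2 and 4, r was 0.803 for Ube2l6, 0.680 for Slc4a1, 0.600 for Isg20 and 0.531 for Tent5c.

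**Figure D4:**
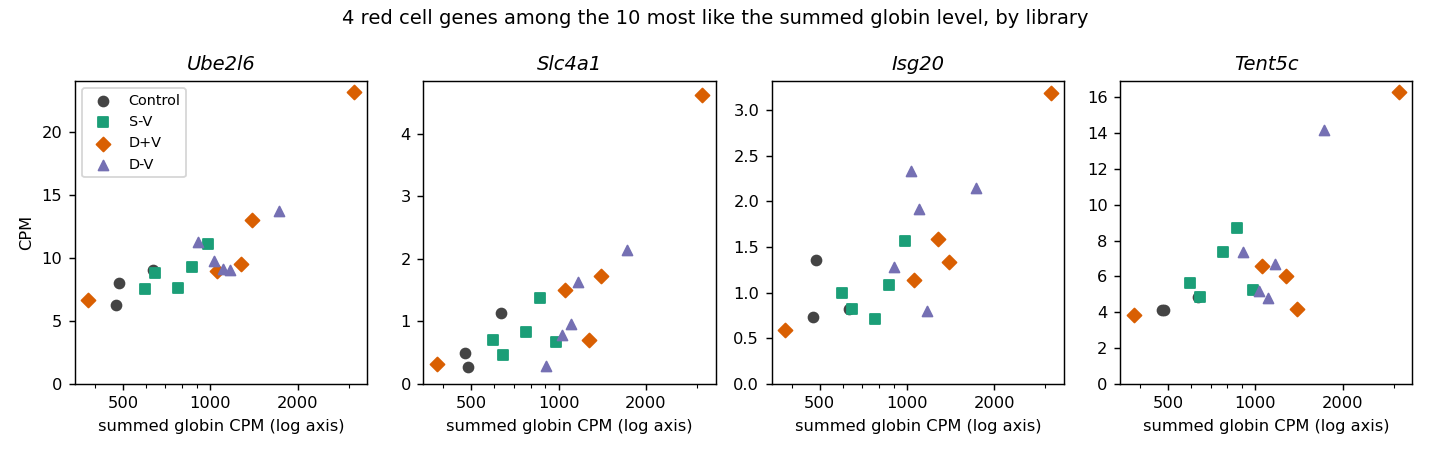
CPM of Ube2l6, Slc4a1, Isg20 and Tent5c, 4 members of the red cell lists among the 10 genes most like the globin sum (linear axis from 0) against the summed globin CPM (log axis), 1 point a library by group. List membership does not make a gene particular to red cells. D+V replicate 2 is the point at the upper right of each panel, and Ube2l6 follows the sum most closely.

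Markers of other cell types also varied between these libraries. The 19 choroid plexus genes, led by Ttr, summed to between 164 and 11389 CPM, and 5 libraries, all rotated, were above 4000 CPM (S-V replicates 2 and 4, D+V replicate 2, and D-V replicates 3 and 4). These 5 had globin sums of 772 to 3134 CPM with a median of 905, and the other 13 had 380 to 1395 CPM with a median of 983. The 13 include all 3 Control libraries, so this split is mixed with group. D+V replicate 2 ranked 2 of 18 in choroid sum and 1 in globins, and D+V replicate 3 was lowest in choroid sum at 164 CPM and ranked 3 in globins. Without the 5 libraries the globin sum was 531 ± 88.5 CPM in Control (n = 3), 741 ± 211 in S-V (n = 3), 1026 ± 453 in D+V (n = 4) and 1101 ± 69.1 in D-V (n = 3), and member log2 fold changes were 0.92 to 1.03 in D+V and 1.01 to 1.12 in D-V against Control. This limit was set after the values were seen.

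When the fit carried a choroid plexus covariate, Hbb-bs and Hbb-bt were called in D+V against Control (edgeR adjusted p = 0.0488 and 0.0493), in a fit that called 2.31% of genes. Sums over marker lists of other blood and vessel cells were 3.91 to 8.91 CPM for platelets, 7.03 to 30.3 for neutrophils, 9.20 to 28.6 for lymphocytes, 464 to 677 for endothelium with pericytes and 439 to 1915 for meninges. Of the 87 tested genes in all these lists and the neuron list, edgeR called 3 (3.45%), all in D+V against Control, where it called 0.908% of all genes: Cldn5 (log2 fold change -0.58, adjusted p = 0.0416) and Pdgfrb (-0.51, adjusted p = 0.0131), of endothelium and pericytes, and Nectin3 (0.46, adjusted p = 0.0412), of hippocampal neurons. The 20 genes of endothelium and pericytes had a median log2 fold change of -0.25 in D+V against Control, against -0.0023 for all tested genes. Of the 20, 5 had positive values and 8 an unadjusted edgeR p under 0.05 in either direction. Of all tested genes 10.9% had such a p in the higher direction alone, which is not the matching share. The share in either direction was not computed, so no excess can be read from this count. The part of these cell types in the globin levels was not tested.

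**Figure D5:**
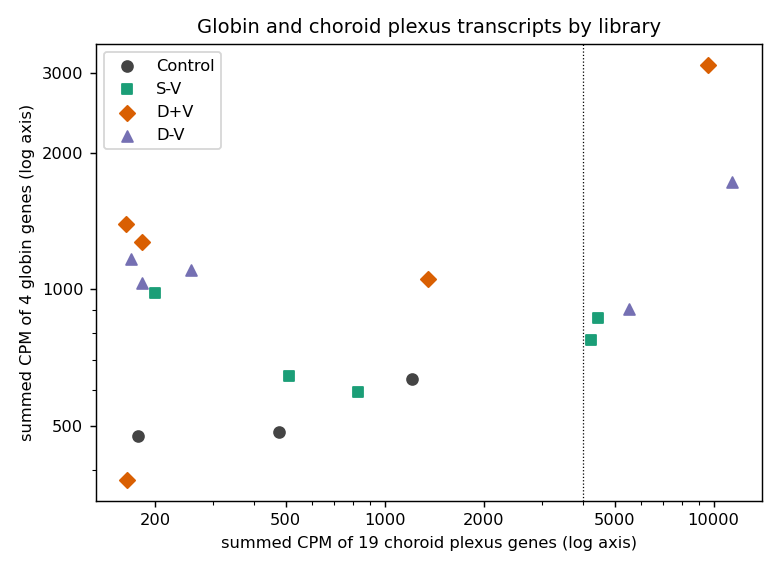
Summed CPM of the 4 globins against summed CPM of 19 choroid plexus genes (both log axes), 1 point a library by group, with a dotted line at 4000 CPM. The 5 libraries to the right of the line are all rotated, and high globin sums also occur at the lowest choroid sums.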

How the data were processed

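The authors deposited estimated counts per gene for 18 libraries, with 7.35% of values not whole, per the file headers and the values. The submitters' processing notes name HISAT2, StringTie (1.3.1), Bowtie2 (2.2.8) and DESeq2 without saying what each did. Build, annotation, strand setting and counting method: not given in the sources used here. Per the labels' protocols, RNA was selected on oligo(dT) beads. Symbols matched 21973 of 22063 identifiers, and the other 90 held 0.0562% of counts.

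Counts were rounded, filtered with filterByExpr (14763 genes kept), scaled by TMM and fitted with edgeR 4.0.16 (quasi-likelihood) in R 4.3.3 over all 18 libraries with a mean per group. Benjamini-Hochberg adjusted p covers all tested genes. CPM are counts divided by the library total, times 1000000, and log2 CPM used a prior count of 2. Alternatives were DESeq2 1.42.0, limma 3.58.1 voom, other scalings and filters, covariates, blocks and left-out libraries. The fits were tested on simulated data. Exact permutation tests used scipy 1.17.1.

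The members, gene lists and tests were chosen with earlier results of these data known. Named were all members, each list's called genes and its 3 most abundant tested genes, and the 10 genes most like the globin sum, except that some of these genes are not reported here. Of the lists for other cell types, called genes and sums are given. Where replicate numbers are shared, deviations from group means correlated over 0.1 in 9 of 24 same-numbered pairs (-0.45 to 0.34). Only Control and D+V had every pair over 0.1 (0.107, 0.154 and 0.168), and the labels do not say what a number marks.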

Additional observations from a re-analysis of the deposited data

Results flagged for a closer look

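Each group of 5 libraries was checked for a single library far from the others, by Dixon's ratio of gap to range (limit 0.71). Of 147 such checks 13 stood out, and chance alone flags about 1 in 20. Among the globins, Hba-a2 in D-V replicate 3 was at 459 CPM, where the other D-V libraries were between 239 and 286 CPM. In the same library Hbb-bt made up 16.0% of beta counts, against 14.6% to 14.9% in the others. Alas2 per 1000 globin counts was 17.6 in S-V replicate 2, against 12.2 to 12.5.

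Genes of like pattern also stood apart in D-V replicate 3, with Tent5c at 14.2 CPM, Zmynd12 at 1.17 and Zfp36l1 at 34.8. Tent5c was at 16.3 CPM in D+V replicate 2. These genes were chosen for their correlation with the globin sum, in which D+V replicate 2 ranked 1 and D-V replicate 3 ranked 2. High values in these libraries partly follow from that choice and are not separate results. Of list genes, Mb was at 4.84 CPM in S-V replicate 2, and D+V replicate 1 had Zbtb7a at 63.1 CPM and Prdx2 at 253 CPM. Among list sums, platelet genes were at 8.91 CPM in D-V replicate 4, lymphocyte genes at 28.6 CPM in D-V replicate 1 and choroid plexus genes at 9646 CPM in D+V replicate 2.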

How the results depend on the processing

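In D+V against Control, 0 of the 5 genes were called, against 5 with DESeq2 (all genes 7.25%) and 2 with limma voom (Hbb-bs and Hbb-bt, all genes 12.7%). The choroid plexus covariate gave 2 (all genes 2.31%), and leaving out 1 library gave 0 to 5. In D+V against S-V, leaving out 1 library gave 0 to 1, the 1 being Alas2 without D+V replicate 1 (edgeR adjusted p = 0.0455, all genes 9.91%). In the other 5 comparisons no alternative called any of them. With the replicate block none was called in D+V against Control (adjusted p 0.0807 to 0.0958), and the block changed no call on these genes elsewhere.

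In D-V against D+V, the log2 fold changes turned positive without D+V replicate 2 (Hbb-bs 0.17, Hbb-bt 0.16, Hba-a1 0.25, Hba-a2 0.19, Alas2 0.20), without the 5 libraries rich in choroid plexus genes (0.084, 0.042, 0.16, 0.052 and 0.15 in that order) and, for Hba-a1, with limma voom (0.095). Leaving out 1 library gave at lowest -0.56, -0.61, -0.47, -0.56 and -0.64, each without D+V replicate 4. The cause was not tested. In the other 6 comparisons all fits kept a positive sign.

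Calls over all gene lists, the genes above left out, in D+V against Control numbered 3 of 149 tested (2.01%, where all genes had 0.908%). They were 1 without the filter (0.546%, all genes 0.328%), 10 of 104 with DESeq2 (9.62%, all genes 7.25%) and 17 with limma voom (11.4%, all genes 12.7%). With the replicate block the count was 1 (0.671%, all genes 0.0339%). It was 0 with only the groups compared, with GC and length trends removed and without the choroid-rich libraries. Leaving out 1 library gave 0 to 11, with 11 (7.48%, all genes 8.78%) without D+V replicate 1. Of these calls, the red cell lists had 4 of 46 tested with DESeq2 (Bnip3l and Tfrc higher, Cygb and Dmtn lower, all genes 7.25%). They had 8 of 62 with limma voom (2 higher and 6 lower, all genes 12.7%). In S-V against Control the calls over all lists were 0, against 4 with DESeq2 (5.06%, all genes 2.50%) and 4 with limma voom (2.68%, all genes 2.15%). In all rotated against Control they were 0, against 3 with DESeq2 (4.0%, all genes 3.17%) and 5 with limma voom (3.36%, all genes 2.58%). The choroid plexus covariate gave 1 (0.671%, all genes 0.251%). Leaving out 1 library gave 0 to 1, with 1 (0.680%, all genes 0.0545%) without D+V replicate 1. In D-V against S-V DESeq2 gave 1 (1.01%, all genes 0.111%). In D-V against D+V the calls were 0, against 2 with DESeq2 (1.64%, all genes 2.27%) and 7 with limma voom (4.70%, all genes 5.55%). Leaving out 1 library gave 0 to 7, with 7 (4.76%, all genes 8.38%) without D+V replicate 1. In D+V against S-V they were 0, against 10 with limma voom (6.71%, all genes 13.2%). Leaving out 1 library gave 0 to 7, with 7 (4.76%, all genes 9.91%) without D+V replicate 1. The cause was not tested.

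Genes called over the whole table in D+V against Control numbered 134, and 0 without Control replicate 1 or 2, 375 without Control replicate 3, 1288, 117, 23, 44 and 24 on leaving out D+V replicate 1, 2, 3, 4 or 5, 60 without the filter, 759 with DESeq2 and 1882 with limma voom. Alas2 had 124 to 1224 counts a library, and Slc4a1 5 to 103.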
